A study of Drosophila melanogaster with 2 samples.

Results

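Oaz is a protein with many zinc fingers, and binding of an Oaz-eGFP fusion was mapped in whole Drosophila melanogaster embryos with an antibody against GFP, by chromatin immunoprecipitation and sequencing (ChIP-seq). The peaks described here are those between genes: their summit lay over 500 bp from every protein-coding transcription start site (TSS) and in no protein-coding gene body. Of 2772 peaks on the chromosome arms in the deposited optimal list, 450 (16.2%) met that rule, against 1223 promoter peaks (summit within 500 bp of a TSS) and 1099 gene-body peaks (in a gene, farther from its start). The rule used position alone and took no account of signal, replicate overlap or sequence. The study had 1 group, with 2 biological replicates of transgenic embryos aged 0 to 24 hours, and no second genotype, treatment or time. The labels give neither the promoter that drives the fusion nor the number of fly lines, and a whole embryo of this age range mixes all tissues and stages.

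Sequence between genes holds enhancers, silencers, insulators, promoters of non-coding RNAs and stretches with no known role. In flies, enhancers of developmental genes often lie many kilobases from the start site they act on, and several can serve 1 gene. Oaz is the fly relative of the vertebrate zinc-finger proteins ZNF423 and ZNF521. The rat form is known to bind a GCACCC-type site, and fly Oaz is known from the posterior spiracles, the openings of the larval tracheal system.

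The summit sequences of 5 of the strongest intergenic peaks are shown to let the reader see what Oaz peaks between genes look like. They are the strongest peaks found in both replicate lists on the arms shown, that hold a hexamer past the test against flanking sequence described below. Each is the summit base with 100 bp to each side, 5′ to 3′ on the plus strand of dm6 (Release 6), named by the nearest protein-coding TSS. Capitals mark ACAGTG and AAAATA on either strand.
CG4004, chrX:12751291-12751491: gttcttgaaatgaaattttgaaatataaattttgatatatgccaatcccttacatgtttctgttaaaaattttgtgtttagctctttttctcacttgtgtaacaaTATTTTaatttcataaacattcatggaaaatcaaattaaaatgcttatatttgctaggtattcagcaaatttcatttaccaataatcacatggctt
tara, chr3R:16222409-16222609: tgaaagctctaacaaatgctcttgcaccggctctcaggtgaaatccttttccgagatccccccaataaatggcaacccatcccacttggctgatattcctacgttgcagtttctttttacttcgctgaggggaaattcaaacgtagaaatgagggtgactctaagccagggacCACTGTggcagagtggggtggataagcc
chinmo, chr2L:1632726-1632926: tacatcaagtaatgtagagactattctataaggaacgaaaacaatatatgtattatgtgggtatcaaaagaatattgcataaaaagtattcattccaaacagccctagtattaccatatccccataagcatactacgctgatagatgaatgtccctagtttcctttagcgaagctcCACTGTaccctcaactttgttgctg
sp3, chr3R:21520258-21520458: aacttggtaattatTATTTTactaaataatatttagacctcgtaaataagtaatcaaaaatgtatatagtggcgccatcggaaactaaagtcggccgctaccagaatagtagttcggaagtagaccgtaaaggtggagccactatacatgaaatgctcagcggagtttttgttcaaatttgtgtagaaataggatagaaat
CG4004, chrX:12752243-12752443: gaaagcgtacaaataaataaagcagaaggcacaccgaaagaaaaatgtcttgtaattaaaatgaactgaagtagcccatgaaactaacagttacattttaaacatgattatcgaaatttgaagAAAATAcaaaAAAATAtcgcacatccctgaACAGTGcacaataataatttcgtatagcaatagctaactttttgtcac

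Next come 4 windows of 251 bp, the strongest peaks in both replicate lists on the arms shown, in which 2 copies of 1 word face each other. Capitals mark ACAGTGG in the windows near CG44362 and tal-1A, and TACACTG or TGCACTG in those near CG3149 and CG9300. These words were chosen after the summit sequences had been seen. The copy on the left reads on the plus strand and the copy on the right on the minus strand, so both read toward the summit in the middle.
CG3149, chrX:5696391-5696641: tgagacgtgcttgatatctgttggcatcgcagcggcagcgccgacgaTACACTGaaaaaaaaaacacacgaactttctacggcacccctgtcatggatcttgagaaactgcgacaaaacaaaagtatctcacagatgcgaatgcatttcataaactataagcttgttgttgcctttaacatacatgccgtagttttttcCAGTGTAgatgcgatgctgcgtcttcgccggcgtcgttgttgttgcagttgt
CG44362, chr3L:11405896-11406146: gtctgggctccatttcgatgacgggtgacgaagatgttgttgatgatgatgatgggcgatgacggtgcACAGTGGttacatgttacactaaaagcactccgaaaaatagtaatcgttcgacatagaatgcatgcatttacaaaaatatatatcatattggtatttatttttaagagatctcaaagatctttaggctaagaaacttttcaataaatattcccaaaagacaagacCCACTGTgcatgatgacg
CG9300, chr3L:19560702-19560952: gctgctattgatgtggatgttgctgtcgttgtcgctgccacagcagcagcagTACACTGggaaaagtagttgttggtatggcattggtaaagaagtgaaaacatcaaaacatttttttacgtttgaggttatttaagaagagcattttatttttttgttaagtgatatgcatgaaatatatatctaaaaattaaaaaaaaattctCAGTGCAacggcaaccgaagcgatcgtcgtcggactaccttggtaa
tal-1A, chr3R:13800424-13800674: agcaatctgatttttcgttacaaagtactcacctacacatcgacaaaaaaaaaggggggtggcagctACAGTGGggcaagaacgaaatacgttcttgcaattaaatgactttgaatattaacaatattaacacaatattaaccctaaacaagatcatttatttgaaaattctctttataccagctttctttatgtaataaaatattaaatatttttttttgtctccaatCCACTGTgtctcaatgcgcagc

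Another kind of site, the core of the site of the insulator protein CTCF, is shown in capitals in 2 windows of 251 bp, near jp and near nej. It too was chosen after the sequences had been seen.
jp, chr2L:9567392-9567642: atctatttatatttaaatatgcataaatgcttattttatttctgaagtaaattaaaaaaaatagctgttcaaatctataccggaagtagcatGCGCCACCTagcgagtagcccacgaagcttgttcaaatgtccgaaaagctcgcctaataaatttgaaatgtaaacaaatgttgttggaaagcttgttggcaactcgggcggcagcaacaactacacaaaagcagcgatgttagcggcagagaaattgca
nej, chrX:9687656-9687906: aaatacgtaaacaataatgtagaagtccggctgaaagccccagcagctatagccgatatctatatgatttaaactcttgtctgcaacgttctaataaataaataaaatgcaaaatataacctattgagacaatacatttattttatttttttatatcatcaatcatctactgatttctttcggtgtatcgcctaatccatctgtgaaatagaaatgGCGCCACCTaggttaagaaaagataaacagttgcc

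Intergenic peaks had lower signal than promoter peaks. The deposited signal value, whose scale is not stated, ranged from 3.36 to 1196 with a median of 87.8 at intergenic peaks, against a median of 121 at promoter peaks and 93.9 at gene-body peaks. In the list of replicate 1 the medians of the peaks found there were 76.6 at intergenic, 90.9 at promoter and 76.5 at gene-body peaks, and in replicate 2 they were 61.3, 72.5 and 62.3. The ranges overlapped throughout. Signal above the median of all arm peaks was found at 170 of 450 intergenic peaks (37.8%, Wilson 95% interval 33.4 to 42.3), against 739 of 1223 promoter peaks (60.4%, 57.7 to 63.1). That difference of -22.6 percentage points passed a two-sided Fisher's exact test (p = 1.72e-16, adjusted over 7 class comparisons p = 1.20e-15). Against gene-body peaks (477 of 1099, 43.4%) the exact p was 0.0470 and the adjusted exact p 0.0658, so the call did not hold after adjustment, and with the list of replicate 2 alone the difference was 0.129 percentage points (exact p = 1.00), against -3.90 with that of replicate 1 (exact p = 0.298). Signals under 30 were found at 22 intergenic peaks, of which 21 overlapped a stronger peak of the same list. Depth is unknown since read counts were not analysed here, and intervals cover counting error over peaks only.

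**Figure D1:**
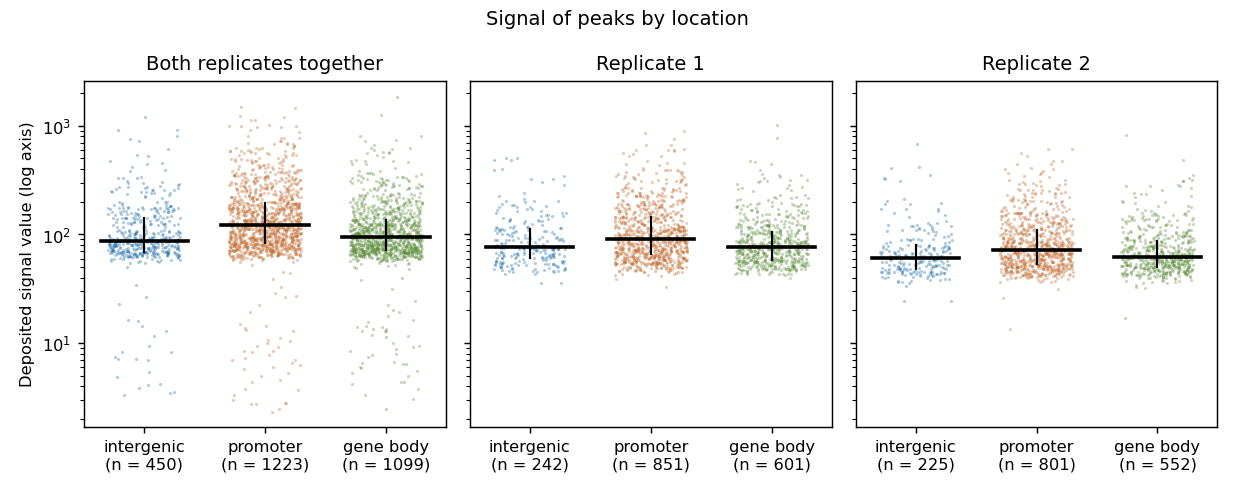
Deposited signal value (log axis) of each peak by location, in the list from both replicates and, for peaks found there, in each replicate's own list. Points are peaks, thick bars medians and thin bars quartiles. Intergenic peaks have a median of 87.8 in the list from both replicates, below that of promoter peaks at 121.

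Replicate overlap followed the same order. A peak in the list of each replicate (overlap of 1 bp or more) was found at 166 of 450 intergenic peaks (36.9%, 32.6 to 41.4), against 665 of 1223 promoter peaks (54.4%, 51.6 to 57.1), with adjusted p = 7.10e-10 in Fisher's exact test. Against 429 of 1099 gene-body peaks (39.0%) the exact p was 0.455. A further 76 intergenic peaks were in the list of replicate 1 only and 59 in that of replicate 2 only. Of the 149 in neither list, 140 overlapped a peak in the longer ranked lists of both replicates, which also hold weak peaks. Among the 166 peaks in both lists, the signals of the replicates had a Spearman rho of 0.811 across peaks, which are not independent replicates, and replicate 1 was higher at 143 of them. The conservative list held a peak at 352 of the 450, and 155 had a global irreproducible discovery rate (IDR), the estimated share of peaks not repeated between measurements, of at most 0.001.

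Among these 155 intergenic peaks with the stricter IDR the comparison of replicate overlap turned round. The IDR filter itself rests on agreement between measurements, so replicate overlap is not independent of it. Then the share in both lists was 5.93 percentage points higher than at promoter peaks (exact p = 0.0259) and 6.47 points higher than at gene-body peaks (exact p = 0.0190). The signal difference from promoter peaks was then -7.23 points (exact p = 0.109).

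The strongest intergenic peaks are described by the protein-coding genes around them. The strongest of all, at chr2R:22678169-22678612, lay 7622 bp from the TSS of RYBP, which encodes a Polycomb-associated protein that binds ubiquitin. It had a signal of 502 in replicate 1 and 682 in replicate 2, and ranked 7 among all arm peaks. The second, at chr2R:13035223-13035452, lay between Su(z)2 and CG13323 and had signals of 505 and 412 in replicates 1 and 2. That gap, chr2R:13007912-13044694, is 36783 bp long, and the nearest protein-coding TSS to the peak was not that of Su(z)2. The sixth, at chr2R:12985104-12985330, was 4214 bp from the TSS of Psc and had 396 and 331. Psc and Su(z)2 encode related RING-finger Polycomb proteins. The peak near Psc lay in the gap from Psc to CG33798, between Psc and Su(z)2, and the second peak lay past Su(z)2. The gap from CG13321 to Psc, on the other side of Psc, held peaks with signals of up to 173.

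Near CG4004 on X, a peak at chrX:12751232-12751566 had signals of 488 in replicate 1 and 419.7 in replicate 2, in the gene of the non-coding RNA lncRNA:Vinr. A second, at chrX:12752249-12752468, had 326 and 204. The peak near tara, which encodes a SERTA-domain transcriptional coregulator of the Trithorax group, had 481 and 325, at chr3R:16222369-16222624. A divergent gap of 37.1 kb lies between RFeSP and chinmo, a BTB zinc-finger gene of temporal cell identity. Of 3 strong peaks there, upstream of both genes, the first at chr2L:1632693-1632950 had 401 and 352, the second 323 and 156, and the third 212 and 189. Among the peaks given with the signal of each replicate up to here, replicate 1 was above replicate 2 at all except the peak near RYBP. The peaks were chosen for strong signal and presence in both lists, so high signal in both replicates is part of that choice.

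Other peaks among the 20 strongest in both replicate lists lay nearest to eEF1gamma, a subunit of translation elongation factor 1 (306 and 309.8), and to sp3 (347 and 193), in a gap it shares with the homeobox gene C15. Near slbo, which encodes a C/EBP factor of border cell migration, there were 2 peaks, with 283 and 173 in the first and 188 and 189.8 in the second, both in lncRNA:CR44810. The peak near CycB, the gene of a mitotic cyclin, had 224 and 212 in a gap of 1340 bp. The rest were near CG17896, hll, CG7560, CG31668, jp (the gene of junctophilin) and foxo, the gene of a forkhead factor of insulin signalling, and had signals of 157 to 239 in replicate 1 and 119 to 173 in replicate 2. By contrast, the 5 strongest intergenic peaks in neither replicate list, near ovo, CG3663, fz4, CG5973 and CG31689, had signals of 89.8 to 93.3 in the list from both replicates. In the ranked lists those had 44.3 to 55.1 in replicate 1 and 35.1 to 44.1 in replicate 2. Their ranks among all arm peaks were 1570 to 1651.

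The 500 bp limit fell in a continuous range. The intergenic peaks nearest to it, near by, CG6602, CG34054, CG3348 and prtp, lay 502 to 514 bp from a TSS and had signals of 14.4 to 154. Just inside it, peaks near Sqor, CG10479, CycD, stv and CG12402 lay 475 to 500 bp from a TSS and had signals of 78.6 to 175.

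Intergenic peaks thinned out with distance from genes. Their summits lay 502 to 393308 bp from the nearest protein-coding TSS, with a median of 4151 bp. Per Mb of intergenic sequence over 500 bp from a TSS there were 28.5 peaks at 500 to 1000 bp, 20.2 at 1 to 2 kb, 13.6 at 2 to 5 kb, 12.2 at 5 to 10 kb, 8.95 at 10 to 20 kb and 2.77 beyond 20 kb. Median signal was 92.5 in the nearest of these bins, 97.1 at 10 to 20 kb and 73.2 beyond 20 kb. By length of the gap between neighbouring genes, gaps of 2 to 5 kb held 26.5 peaks per Mb and gaps over 100 kb held 1.88. Gaps between divergent genes held 14.9 per Mb, tandem gaps 10.3 and convergent gaps 8.77, while the share of peaks in both replicate lists was 38.2%, 31.2% and 51.2% in that order. These densities were not tested, and how reads in repeated sequence were placed is not given in the sources used here.

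**Figure D2:**
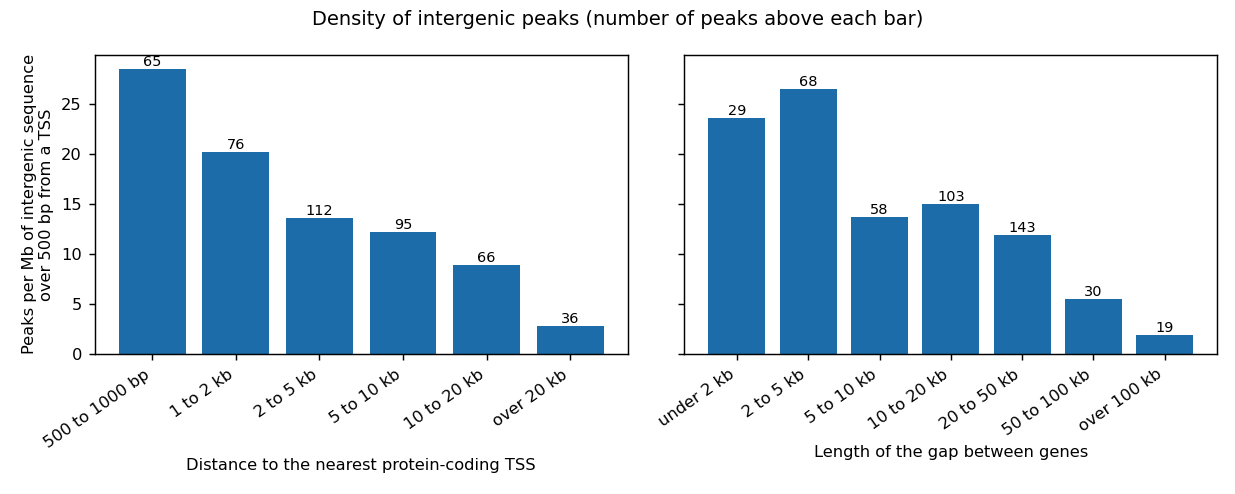
Intergenic peaks per Mb of sequence over 500 bp from a TSS and outside protein-coding genes, by distance to the nearest protein-coding TSS and by length of the gap between genes, with the number of peaks above each bar. Density is 28.5 per Mb at 500 to 1000 bp and 2.77 per Mb beyond 20 kb.

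By arm, density was 13.7 peaks per Mb on 2L, 9.21 on 2R, 12.3 on 3L, 9.89 on 3R, 11.2 on X, 3.36 on chromosome 4 (1 peak) and 1.22 on Y (3 peaks). X held 70 of 450 intergenic peaks (15.6%), against 465 of 2322 other arm peaks. The two-sided Fisher's exact p was 0.0311 and the adjusted exact p 0.0544, so the difference did not hold after adjustment. It was -7.52 percentage points with the list of replicate 1 alone (exact p = 0.00477) and -4.88 with that of replicate 2 alone (exact p = 0.0966). Of the eligible intergenic sequence 14.7% is on X.

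Annotated transposable elements made up 10.3% of the eligible intergenic sequence and held 3 of the 450 summits (0.667%, Wilson 95% interval 0.227 to 1.94). The strongest of the 3, near ed, lay in a copy of INE-1 and had signals of 77.5 in each replicate. Non-coding RNA genes made up 6.96% of that sequence and held 45 summits (interval 7.56 to 13.1%). Counting also summits within 500 bp of a non-coding start, 69 peaks (15.3%) lay at such a gene. The share of eligible sequence was not computed for this wider count, so it has no background.

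Among the 100 strongest intergenic peaks, lncRNA genes that held a summit were lncRNA:Vinr, CR44619, CR44810, CR44363, CR44676, CR44603, CR44833, CR44917, CR44919, CR44517, CR43334, CR45668 and CR45618. Beyond the peaks near CG4004 and slbo, the highest of these was in lncRNA:CR44619, with 186 in replicate 1 and 88.7 in replicate 2. In lncRNA:CR44363 the peak had 172 and 103. In all, 14 of the 100 had a summit in such a gene, and 10 more lay within 500 bp of a non-coding start without being in the gene. The starts near those 10 were of lncRNA:CR44339 (the peak near Psc), CR31044 (eEF1gamma), CR31840 (hll), CR42657 (nej), CR45541 (Hex-A), CR45352 (NimC3), Uhg4 with snoRNA:Psi28S-2949 (Boot), asRNA:CR45281 (Alp6) and CR45251 (2 peaks near CG6163). The summit near hll was 17 bp from the start of lncRNA:CR31840. Small RNA genes were close to few peaks, and no background share was computed for them. A summit lay inside snRNA:7SKa, the gene of an RNA that restrains the elongation factor P-TEFb (signal 90.2), and another inside snRNA:U1:95Ca, a gene of the splicing RNA U1 (56.3). Within 1000 bp of a summit lay the miRNA genes mir-4981 (297), mir-282 (133), mir-375 (92.1), mir-8 (76.2) and mir-14 (66.3 and 34.4, at 2 peaks), where the signal of the peak is in brackets. Near tRNA genes 2 peaks were found, with 75.4 beside a pair of alanine tRNA genes and 67.7 near a leucine tRNA gene.

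Part of the intergenic peaks came in groups. The 450 peaks lay in 308 gaps between genes, and 26 gaps with 3 or more peaks held 114 of them. Counts of peaks in gaps, here and below, include the 23 intergenic peaks that overlap a stronger peak of the list. After overlapping peaks had been reduced to the strongest, 159 of 427 intergenic peaks (37.2%, 32.8 to 41.9) had another peak of any class within 5 kb, against 360 of 1174 promoter peaks (30.7%, 28.1 to 33.4). Fisher's exact test gave p = 0.0157 and an adjusted exact p of 0.0366. The difference was -0.458 percentage points with a distance of 10 kb (exact p = 0.910), and 4.51 points without summits at non-coding genes (exact p = 0.119). The list of replicate 1 alone gave 10.8 points (exact p = 7.31e-04) and that of replicate 2 alone 7.75 (exact p = 0.0204). Against gene-body peaks (414 of 1054, 39.3%) the exact p was 0.480.

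The gap with most peaks lay between RFeSP and chinmo on 2L, 37.1 kb long, with 9 peaks, of which 6 were in both replicate lists. Their signals ranged from 77.8 to 750.1, and single-replicate lists held 8 peaks (replicate 1) and 6 (replicate 2) there. On 3L, the gap from CG44362 to CG7560 held 7 peaks with signals of 26.8 to 333, and 6 of them were in both replicate lists. Next to it on the same arm, a chain of 10 intergenic peaks spread over 56.8 kb between Dyro and CG6163, with no step over 25 kb.

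Near the left end of 3L, 13 intergenic peaks spread over 58 kb in the gaps from hng3 to CG13898 and from CG13898 to Sf3b3, beside emc (chr3L:749400-753492), which encodes a helix-loop-helix inhibitor. Only 3 of these 13 were in both replicate lists, and the strongest had a signal of 293. On X, 6 peaks lay within the 7.25 kb between CG4004 and Paics, the densest of the 8 gaps with most peaks, at 8.28 peaks per 10 kb. Without overlapping peaks 5 remained there, and the weakest of the 6 had a signal of 13.0. The gap from NijA to CG43245 held 5 peaks up to 285. In the 117 kb between vvl, which encodes a POU-domain factor of trachea and nervous system, and Prat2 there were 5 peaks up to 239.

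**Figure D3:**
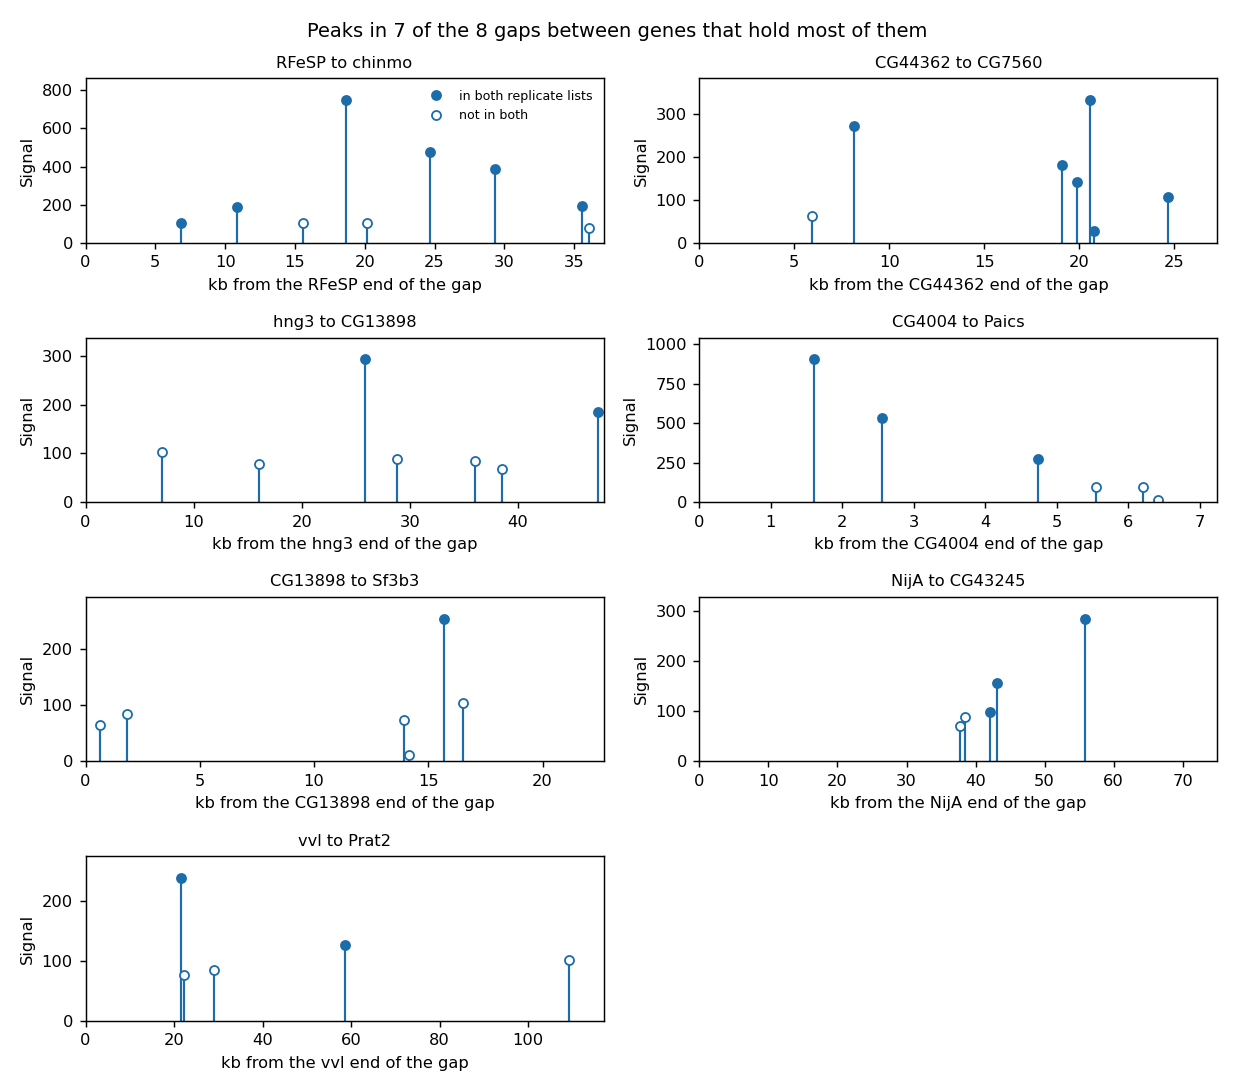
Deposited signal of each intergenic peak against distance (kb) from the left gene in 7 of the 8 gaps with most peaks; filled circles are peaks in both replicate lists and open circles the others. The 9 peaks between RFeSP and chinmo include 3 with signals of 388 to 750.1, and 6 of the 9 are filled.

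The share of genes with an intergenic peak in a bordering gap varied between gene lists, as did the length of those gaps. Of 8224 protein-coding genes that border eligible intergenic sequence, 592 (7.20%) had an intergenic peak in a bordering gap, where 1 peak counts for the genes on both sides. A peak given for a listed gene can thus lie nearer to the other gene of the gap. That share was 2.63% for genes whose longest gap was under 5 kb, 12.8% at 5 to 20 kb and 24.2% at 20 kb or more. The median longest gap was 1895 bp over all these genes.

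Of 10 pair-rule genes, 6 had a peak (median longest gap 23468 bp), with signals of 231 in the gap of slp1 and slp2, 147 at hry and 141 at odd as the strongest. These are transcription factor genes of segmentation, and the peak between slp1 and slp2 had 125 in replicate 1 and 98.0 in replicate 2. Gap and head gap genes had one at 5 of 12 (41.7%), led by btd (299), where the peak lay nearest to nej, 715 bp from its TSS. Tracheal and posterior spiracle genes had one at 8 of 20 (median longest gap 23158 bp), with 20 peaks in their gaps. The strongest of these were at vvl (127 and 107 in replicates 1 and 2), at sty, an inhibitor of receptor tyrosine kinase signalling (81.8 and 89.2), and at cv-c, a RhoGAP gene (120.1 and 50.6).

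Hox genes had a peak at 3 of 8 (37.5%), where abd-A had 227 and Dfd and Scr had 68.6 and 64.4, the last pair in neither replicate list. Genes of the Iroquois, T-box, Sox and NK clusters and the like had one at 10 of 27 (37.0%), with C15 (535) and the eye homeobox gene Optix (297) highest. The peak given for C15 lay nearest to sp3, and that for Optix nearest to CG14762, 652 bp from its TSS. Polycomb and Trithorax genes had one at 4 of 12 (33.3%), namely Psc, Su(z)2 and the neighbours ph-p and ph-d, which share a gap with a peak of 150.1. That list has a median longest gap of 2545 bp. Segment polarity, Wg and Hh genes had 7 of 21 (33.3%), eye and appendage genes 7 of 24 (29.2%), EGFR and FGF genes 3 of 12, Dpp/BMP genes 4 of 17 (23.5%), and mesoderm, muscle and heart genes 4 of 18 (22.2%).

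Shares lower than these were found for proneural and neuroblast genes (3 of 18, 16.7%), ecdysone genes (2 of 12, 16.7%) and Notch pathway genes (2 of 14, 14.3%). They were still above the 7.20% over all genes. Median longest gaps of these lists were 13757, 4439 and 3632 bp in that order. Odorant and gustatory receptor genes had 6 of 79 (7.59%), and cell adhesion and axon guidance genes 2 of 28 (7.14%) although their median longest gap was 10203 bp. Ribosomal protein genes had 3 of 54 (5.56%), cuticle protein genes 5 of 105 (4.76%), and ionotropic receptor and odorant-binding protein genes 2 of 71 (2.82%). Heat shock genes had 0 of 12. Shares of the lists are a description with no test and no allowance for gap length. The median longest gap was 18941 bp for Hox and 19282 bp for gap and head gap genes. It was 18422 bp for eye and appendage and 16114 bp for EGFR and FGF genes.

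At the Oaz gene itself, listed under the symbol L, an intergenic peak at chr2R:14434193-14434522 lay 1541 bp from its TSS, between phyl and L. It had a signal of 76.9 in replicate 1 and 71.8 in replicate 2. In all, 2 intergenic peaks lay within 20 kb of the gene.

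Hexamers fixed for the comparison of sequence were counted within 100 bp of summits and in windows of the same size centred 700 bp away. Those flanking windows were not required to lie between genes or away from a TSS. Of 30 motifs, 2 (6.67%) were higher at intergenic summits than in the left flank and 0 were lower, by a two-sided exact McNemar test with Benjamini-Hochberg adjusted p under 0.05, while 3 had an unadjusted p under 0.05. ACAGTG was in 88 of 450 summit windows (19.6%), against 50 left (11.1%) and 31 right flanks (6.89%), with adjusted exact p = 0.0246. AAAATA was in 228 summit windows (50.7%), against 184 left (40.9%) and 180 right flanks, with adjusted exact p = 0.0458. Both hexamers had been noted at summits of these data before, so their direction is no independent evidence. The differences from the left flank were 8.44 and 9.78 percentage points. Without summits at non-coding genes they were of like size, 8.66 and 9.19 points over 381 peaks, but did not pass (adjusted exact p = 0.0552 and 0.143). With over 1000 bp to a TSS they were 8.31 and 9.09 points over 385 peaks (adjusted exact p = 0.0598 and 0.163). With 50 bp to each side of the summit they were 1.11 and 9.11 points (adjusted exact p = 1.00 and 0.0563). With the list of replicate 1 alone ACAGTG differed by 11.8 points (adjusted exact p = 0.0113) and AAAATA by 11.4 (adjusted exact p = 0.0550). With that of replicate 2 alone they differed by 9.79 (adjusted exact p = 0.0888) and 19.1 points (adjusted exact p = 0.00242). Over all alternatives run it ranged from 8.72e-07 to 1.00 for ACAGTG and from 0.00242 to 0.163 for AAAATA. The TATA box TATAAA did not pass (adjusted exact p = 0.605) but did with the list of replicate 1 alone (adjusted exact p = 0.00135). GCACCC was in 26 summit windows (5.78%), against 21 left (4.67%) and 16 right flanks (3.56%), with adjusted exact p = 0.999.

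The DRE, CGATAG and the M1BP site were scarcer at intergenic than at promoter summits. The classes are split by distance to a TSS, and promoters without a peak were not counted. Whether the motif differences between these classes go beyond location was therefore not tested. Of the 30 motifs, 7 (23.3%) were lower than at promoter summits and 0 higher, by Fisher's exact test with adjusted p under 0.05, with 8 of 30 unadjusted. The DRE (TATCGATA), the site of the factor DREF at promoters of growth genes, was in 1 of 450 intergenic windows, against 5.89% of promoter windows (adjusted exact p = 4.18e-08). CGATAG, which overlaps the DRE in part and is close to the site of the insulator protein BEAF-32, was in 13 of 450 intergenic against 183 of 1223 promoter windows (adjusted exact p = 1.25e-12). GGTCACACT, Motif 1 of promoters and the site of M1BP, was in 0.222% against 2.21% (adjusted exact p = 0.0114), a difference of -1.99 percentage points. With the shorter list of 1 replicate alone it was -1.59 points for replicate 1 (adjusted exact p = 0.273) and -1.83 for replicate 2 (adjusted exact p = 0.361), which did not pass. Over its alternatives that p ranged from 0.0115 to 0.766.

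The other 4 called lower were TATAAA (29.6% against 37.9%), AAAATA (50.7% against 59.9%), the E-box CAGCTG (5.11% against 10.5%) and the homeodomain core TAATTA (13.8% against 19.1%), with adjusted exact p from 0.00497 to 0.0489. TATAAA differed by -8.38 percentage points, and by -8.55 with the list of replicate 1 alone and -8.50 with that of replicate 2 alone, where it did not pass (adjusted exact p = 0.0827 and 0.129). TAATTA differed by -5.27 points, and by -4.83 and -5.81 with the replicates alone, and did not pass there (adjusted exact p = 0.273 and 0.231). AAAATA differed by -9.19 points, by -10.1 with the list of replicate 1 alone (adjusted exact p = 0.0284) and by -5.22 with that of replicate 2 alone (adjusted exact p = 0.451). Over all alternatives the p of TAATTA ranged from 0.0201 to 0.766, that of TATAAA from 0.00911 to 0.129 and that of AAAATA from 0.00182 to 0.643. ACAGTG did not pass this test (19.6% against 20.2%, adjusted exact p = 1.00), nor did GCACCC (5.78% against 4.09%, adjusted exact p = 0.408). Against gene-body peaks 0 of 30 motifs passed in either direction by Fisher's exact test with adjusted p under 0.05, and 3 had an unadjusted p under 0.05. ACAGTG was in 25.5% of gene-body windows (adjusted exact p = 0.267).

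Over all 2080 hexamers, counted with their reverse complements, 3 (0.144%) were higher at intergenic summits than in the left flank by the McNemar test with adjusted p under 0.05, and 0 were lower. They were AGTGTA (86 summit windows against 35 left flanks), ACACTG (81 against 34) and TATGAA (96 against 48). The adjusted exact p values were 0.00286, 0.00525 and 0.0114. AGTGTA reads TACACT on the other strand, so the first pair overlap in the word TACACTG. Against the right flank 9 hexamers passed, 8 of them higher at summits. AGTGTA and ACACTG passed there too, but TATGAA did not (60 right flanks, adjusted exact p = 0.149). In this scan of 2080, ACAGTG and AAAATA did not pass against the left flank (adjusted exact p = 0.0948 and 0.178).

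Both words were densest at 40 to 140 bp from intergenic summits, and TACACTG or TGCACTG was also denser within 40 bp than at 140 to 500 bp. Copies of TACACTG or TGCACTG numbered 1.49 per kb at 40 to 140 bp from intergenic summits, against 0.833 within 40 bp and 0.290 at 140 to 500 bp. For ACAGTGG the densities were 0.644, 0.194 and 0.204 per kb in the same bands. The word ACAGTGG reads CCACTGT on the other strand, so the shared core CACTG points toward the summit in TACACTG and TGCACTG and away from it in ACAGTGG.

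Orientation was uneven. From 20 to 140 bp of intergenic summits, TACACTG or TGCACTG read toward the summit 128 times and away from it 23 times (84.8% toward). ACAGTGG read toward it 55 times and away 8 times (87.3%). In windows 700 bp to the left the same words read toward the centre 20 and away 20 times, and 6 and 17 times. To the right the counts were 10 and 13, and 8 and 7. Promoter peaks had 77.1% and 84.9% toward the summit, and gene-body peaks 82.8% and 88.8%, for the words in that order. In each replicate's own list the intergenic peaks gave 80.7% and 87.2% (replicate 1) and 83.3% and 89.7% (replicate 2). Words, distances and orientation were chosen after the values had been seen, so they are given without a test.

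**Figure D4:**
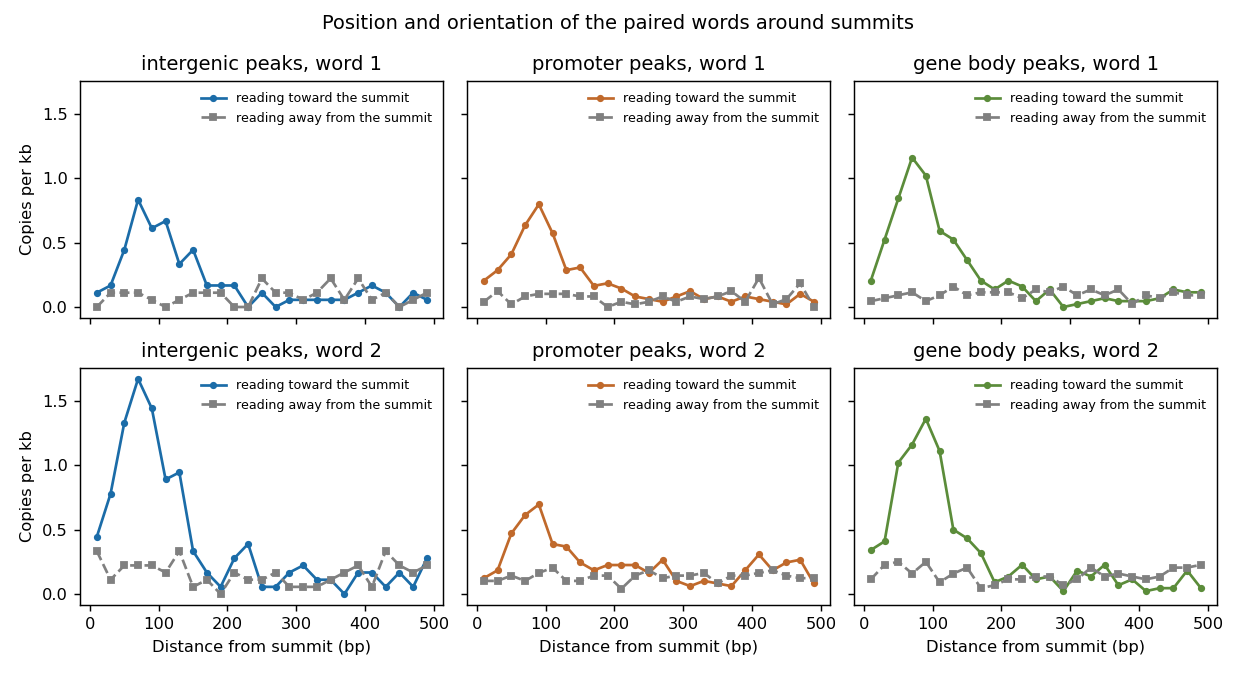
Copies per kb of ACAGTGG (word 1, top) and of TACACTG or TGCACTG (word 2, bottom) against distance from the summit in bp, for intergenic, promoter and gene-body peaks. Solid lines are copies that read toward the summit and dashed lines copies that read away. At intergenic peaks word 2 reaches 1.67 copies per kb toward the summit at 60 to 80 bp, against 0.222 away.

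Within 150 bp of the summit, 177 of 450 intergenic peaks (39.3%) had 1 of these words. ACAGTGG alone was at 47, TACACTG or TGCACTG alone at 121, and both at 9. TACACTG or TGCACTG was at 28.9% of intergenic, 14.1% of promoter and 25.3% of gene-body peaks, and ACAGTGG at 12.4%, 12.9% and 17.7%. Among left flank windows of intergenic peaks the shares were 9.78% and 6.44%. Median signal was 91.8 at the 177 peaks with a word and 83.0 at the 273 without, and 39.0% and 35.5% of them were in both replicate lists. Of the 20 strongest intergenic peaks, 7 had a word and 13 had none.

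Some peaks held copies in facing pairs. These are not separate from the orientation above, since copies on opposite sides that each read toward the summit face each other. The spacing of pairs likewise rests on the distances of copies from the summit. Among intergenic peaks 36 had 2 copies of 1 word that read toward each other, 26 with TACACTG or TGCACTG and 10 with ACAGTGG. Facing pairs of TACACTG or TGCACTG were at 5.78% of intergenic, 0.899% of promoter and 3.28% of gene-body peaks. Those of ACAGTGG were at 10 of 450 intergenic, 21 of 1223 promoter and 44 of 1099 gene-body peaks. The median spacing was 153 bp (quartiles 137 and 172) for the first word and 166 bp (158 and 180.2) for the second. For TACACTG or TGCACTG there were 29 facing pairs against 3 that read apart and 7 in tandem, and for ACAGTGG 10 against 0 and 1. Left flanks held 1 facing pair of the first word and 0 of the second, and right flanks 1 of each. Peaks with such pairs included those near slp2 (125 and 98.0 in replicates 1 and 2), between Doc2 and Doc1, T-box genes of the dorsal embryo (94.5 and 80.5), and near the neural Sox gene SoxN (77.5 and 48.1).

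**Figure D5:**
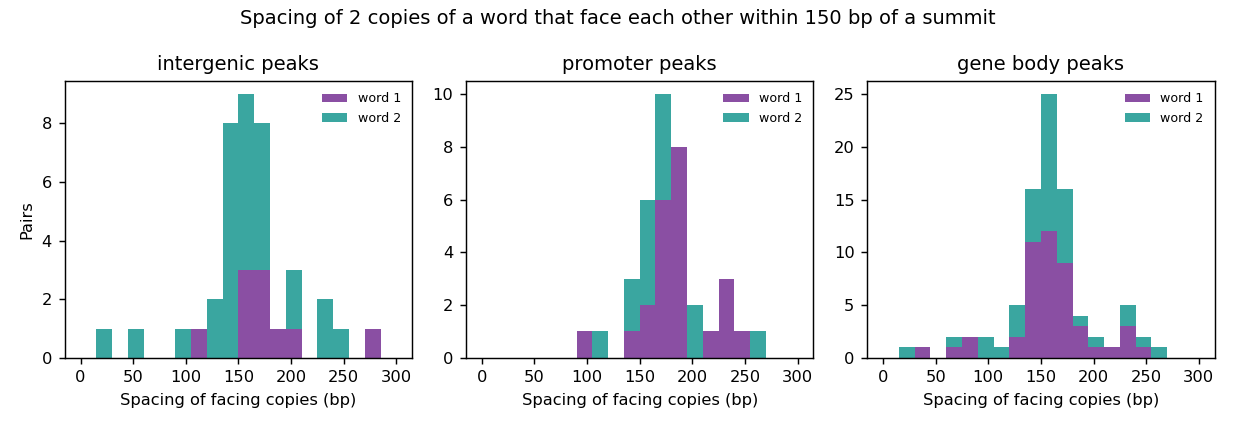
Spacing in bp of 2 copies of a word that face each other within 150 bp of a summit, with the number of pairs on the vertical axis, for intergenic, promoter and gene-body peaks; word 1 is ACAGTGG and word 2 is TACACTG or TGCACTG. The median spacing at intergenic peaks is 166 bp for word 1 and 153 bp for word 2.

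The CTCF core AGGTGGCGC was within 150 bp of 14 of 450 intergenic summits (3.11%), against 9 of 1223 promoter (0.736%) and 16 of 1099 gene-body summits (1.46%). Left and right flanks of intergenic peaks held it in 1 and 2 windows. CTCF binds insulators and domain borders in flies. Of the 14 peaks, 8 were in both replicate lists, and their median signal was 143. They included the peaks near jp (157 in replicate 1 and 173 in replicate 2), near nej, the gene of the acetyltransferase CBP, in the gap it shares with btd (151 and 152), and near CG14762 in the gap with Optix (198 and 100.2). Also among them were those near zfh1 (74.8 and 75.5) and near L, the Oaz gene (76.9 and 71.8). The core was chosen after the values had been seen and was not tested.

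Base composition also varied around the summits. AT content averaged 63.5% within 20 bp of intergenic summits, 55.3% at 180 to 200 bp and 58.9% at 480 to 500 bp. The median within 100 bp was 63.2% at intergenic, 65.7% at promoter and 64.2% at gene-body peaks. The part of AT content in the counts of AAAATA was not tested.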

How the data were processed

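Whole embryos of the Oaz-eGFP strain (2 biological replicates) were precipitated by the authors with anti-GFP after sonication to a size range of 200 to 800 bp, per the labels. Deposited lists on dm6 derive from both replicates, or 1 of them, together with a control. The aligner and the peak caller were not given in the sources used here. The deposited signal value of a peak has no stated scale. Ranked lists add the deposited −log10 of the global IDR, at most 5. In these, 8 signal columns of single libraries were not used. Control reads were not analysed here.

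The optimal list was used, without 74 peaks on unplaced contigs. Genes and TSSs came from Ensembl release 115 (13968 protein-coding genes on the arms), and sequence from RefSeq Release 6, with 0 peaks past an arm end. Replicate signal is that of the overlapping peak in a replicate's own list. Shares were compared by two-sided Fisher's exact tests, and motifs by exact McNemar tests against a window 700 bp lower, with p adjusted after Benjamini and Hochberg and a threshold of 0.05. Of the symbols in the 20 gene lists, 5 were not matched. Named peaks are the 20 strongest in both replicate lists, the 5 strongest in neither and the 5 nearest the 500 bp limit on each side. Named too are the 8 gaps with most peaks (1 is not reported here), non-coding genes at the 100 strongest, miRNA and tRNA genes within 1000 bp, and up to 4 genes a list. Members and lists were chosen with earlier results of these data known. Motif tests were tested on simulated data: 1 of 30 motifs was called against flanks, with 1 planted over 450 windows. Alternatives changed the list, IDR, replicate, overlapping peaks, distances, windows and flank. Tools were matplotlib 3.10.9, pandas 2.3.3, scipy 1.17.1, numpy 2.4.6 and Python 3.11.15. Sequence from arm 2R is not reported here.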

Additional observations from a re-analysis of the deposited data

How the results depend on the processing

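The alternatives gave 92 values for the class and motif comparisons, of which 66 kept their direction and side of the threshold or, for a count of motifs, came within 1.5 times the reported count. Such a count does not say which motifs: with the conservative list 6 were lower than at promoters, and AAAATA (-5.93) and TAATTA (-2.35) no longer passed. With a global IDR of 0.001 or less, the share in both replicate lists was 5.93 percentage points above promoter and 6.47 above gene-body peaks. That filter rests on agreement between measurements, so this share is not independent of it. Signal above the median was then -7.23 and 6.99, the X share -6.14, and 4 motifs were lower than at promoters. Leaving out a replicate gave, against gene-body peaks, -3.90 to 0.129 for signal, -3.76 to 0.712 for replicate overlap and 0.151 to 2.50 for neighbours, an X difference of -7.52 to -4.88, 1 to 3 motifs against flanks and 3 to 4 against promoters; cutting the signal at its upper quartile gave 0.650 against gene-body peaks. With over 1000 bp to every TSS, signal against gene-body peaks was -5.17, neighbours 1.75, and 0 motifs passed against flanks. Without summits at non-coding genes, neighbours against promoters were 4.51 and 0 motifs passed against flanks; without the Oaz locus 1 motif passed. Neighbours within 2 kb gave 1.69 against gene-body peaks, and within 10 kb -7.14 against these and -0.458 against promoter peaks. With 50 bp to each side of the summit, 0 motifs passed against flanks. ACAGTG turned higher than at promoters with the conservative list (0.414), the stricter IDR (8.50) and each single replicate (1.89 and 1.67). GCACCC against flanks was -0.645 at the stricter IDR and -0.222 with 50 bp to each side, and the DRE -0.222 against the right flank. The cause was not tested, beyond fewer peaks in shorter lists. Calls of DRE and CGATAG against promoters held in all 9 alternatives run, each with classes split by distance to a TSS. No paired analysis was possible because the samples form 1 group, and the McNemar tests pair windows of 1 peak, not samples.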
